A study of Mus musculus with 4 samples.

Results

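The cytosolic ribosomal protein genes encode the protein parts of the ribosome, the Rpl genes those of the large subunit and the Rps genes those of the small one. They were taken from the gene symbols: Rpl or Rps followed by a number, or Rplp0, Rplp1, Rplp2 or Rpsa. Left out were 10 Rps6k genes, which encode kinases, and 2 pseudogenes, and no member carried the suffix of a repeated copy. This gave 86 of the 22722 genes listed, 52 of the large subunit and 34 of the small. Rps19bp1 meets the symbol rule as well, although it encodes a protein named for binding Rps19 and no subunit of the ribosome.

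MPC11 is a mouse plasmacytoma line, a tumour line of antibody-secreting plasma cells. Of 4 cultures, 2 carried the lentiviral vector pLKO.1 with the hairpin shELL2-1C7 against Ell2 (Ell2-KD) and 2 carried pLKO.1 with a hairpin against GFP (shGFP, the control). The Ell2 protein helps RNA polymerase II to elongate transcripts. All 4 cultures were grown in RPMI with 10% FBS, lost the virus-containing medium after 18 h, were selected in puromycin for 72 h and were expanded for another 72 h, and their total RNA was sequenced on a SOLiD machine. Each group rests on 1 hairpin. Both samples of a group are labelled as biological replicates, but whether they were transduced apart is not given in the sources used here. The p-values therefore measure only the spread between the samples at hand, which may be technical.

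The libraries held 13914488 and 3496471 counts in Ell2-KD replicates 1 and 2, and 8323915 and 5088789 counts in shGFP replicates 1 and 2. Ell2 was at 87.8 and 115 CPM (counts scaled to a library of 1000000 by TMM, a normalisation over all genes) in Ell2-KD, against 938 and 996 CPM in shGFP. Its log2 change, Ell2-KD over shGFP, was -3.25 ± 0.23 (SE; the quasi-likelihood test of edgeR gave an adjusted p = 0.00032, by the method of Benjamini and Hochberg). The plasma cell markers Sdc1, Xbp1, Prdm1, Irf4, Igj and Tnfrsf17 summed to 15765 and 12272 CPM in Ell2-KD and to 19148 and 14498 CPM in shGFP. Most of each sum was Igj, with 130045 and 28894 counts in Ell2-KD and 98273 and 49581 in shGFP. Tnfrsf17 had 18 and 1 counts in Ell2-KD and 159 and 126 in shGFP. Of these 6, 6 had a negative log2 change, with a median of -0.34. For 5 of them both Ell2-KD libraries lay below both shGFP libraries, as for 18.5% of all genes tested. Over 7 T and NK cell markers the sum was 0.862 and 4.86 CPM in Ell2-KD and 1.80 and 4.52 CPM in shGFP, and over 6 myeloid markers it was 4.46 and 4.0 CPM in Ell2-KD and 1.44 and 2.95 CPM in shGFP. Over 3 erythroid markers it was 0.29 and 0 CPM in Ell2-KD and 0 and 0.59 CPM in shGFP, with Hbb-b1 at 0 in all 4 libraries. The stromal and epithelial list summed to 455 and 590 CPM in Ell2-KD and to 494 and 631 CPM in shGFP, and nearly all of it was Epcam, with 2024 to 6259 counts a library against at most 7 for each of the collagens and Krt18 and 15 to 58 for Pdgfra. Of the myeloid list, Itgam had 47 and 6 counts in Ell2-KD and 8 and 9 in shGFP. The part of any of these in the results below was not tested.

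A ribosome holds a single copy of nearly every ribosomal protein, and a growing cell spends much of its protein synthesis on them. Their messenger RNAs typically begin with a C and a run of pyrimidines, the terminal oligopyrimidine tract, through which growth signalling by the kinase complex mTORC1 and the RNA-binding protein Larp1 governs their translation. A plasma cell leans on ribosomes to secrete antibody, and several ribosomal proteins, set free when assembly fails, bind Mdm2 and stabilise p53. Many of the genes also carry small nucleolar RNAs (snoRNAs) in their introns, and the mouse genome holds many processed copies of most of them.

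To show the start sites, 60 bases, from 45 before the start to 15 from it on, are printed for genes on which the results below turn. Capitals mark the first pyrimidine run that starts with C and has at least 7 further pyrimidines between 30 bases before and 20 bases after the start. Rpl4, Rpl5, Rpl27a and Rpl35a have such a run in the window shown, and Rplp0, Rpsa and Rps15 have none. The other starts of Rpl35a have no such run either. The runs of Rpl27a and Rpl35a span the annotated start. Those of Rpl4 and Rpl5 end before it, so a marked run is not by itself a terminal oligopyrimidine tract. The sequences are from RefSeq, build GRCm38.p6, on the plus strand, at chr9:64173342-64173401 for Rpl4, chr5:107900483-107900542 for Rpl5, chr7:109519150-109519209 for Rpl27a, chr16:33056437-33056496 for Rpl35a (1 of its 3 starts), chr5:115559422-115559481 for Rplp0, chr9:120127721-120127780 for Rpsa and chr10:80292386-80292445 for Rps15.
Rpl4: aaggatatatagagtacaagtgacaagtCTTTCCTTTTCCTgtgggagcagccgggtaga
Rpl5: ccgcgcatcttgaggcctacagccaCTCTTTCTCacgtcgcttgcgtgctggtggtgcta
Rpl27a: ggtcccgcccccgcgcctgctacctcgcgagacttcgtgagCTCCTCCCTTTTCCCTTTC
Rpl35a: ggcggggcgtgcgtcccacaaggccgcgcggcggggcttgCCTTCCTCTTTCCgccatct
Rplp0: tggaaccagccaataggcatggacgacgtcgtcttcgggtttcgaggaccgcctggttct
Rpsa: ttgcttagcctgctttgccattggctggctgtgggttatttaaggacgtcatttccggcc
Rps15: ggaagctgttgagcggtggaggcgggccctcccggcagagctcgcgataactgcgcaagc

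Of the 86 genes, 65 had a RefSeq promoter window of 250 bases before to 50 after a start, 77 windows in all. The pyrimidine run stood in 44.2% of these, against 15.9% of the 32851 windows of all genes, and in 44.7% of the 47 large subunit and 43.3% of the 30 small subunit windows. CCGGAAG, the core of the sites of Ets factors, was in 35.1% of the ribosomal protein windows on either strand, against 8.86% of all. Read on the other strand it can share letters with a pyrimidine run, which it did in 1 window. GGGCGG, the core of Sp1 sites, was in 61.0% against 35.7%, and CCATNTT, the core of Yy1 sites, in 33.8% against 16.1%. The TATA box TATAAA was in 9.09% against 13.6%, and CACGTG, the E-box that Myc and Max bind, in 10.4% against 7.15%. These matches are descriptions of the letters in the window.

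As a check of the gene group, its markers Rplp0, the scaffold of the acidic stalk that recruits elongation factors, and Rpsa, a protein of the small subunit's head, were both abundant. Rplp0 had 522 and 620 CPM in Ell2-KD, and 513 and 846 CPM in shGFP. Rpsa had 701 and 684 CPM in Ell2-KD, and 512 and 919 CPM in shGFP. The shGFP libraries were the lowest and the highest of the 4 for both genes, and the Ell2-KD libraries lay between them. Together the 86 genes took 2.08% and 2.50% of the counts in Ell2-KD and 1.96% and 2.96% in shGFP.

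Levels per coding length were far from even. Per kilobase (kb) of coding sequence, the mean over the 4 libraries was highest for Rps3, which lines the channel where messenger RNA enters the small subunit, at 3421 CPM per kb. Also high were Rpl17 at 1905, Rpl4 at 1861 and Rpl23a at 1758 CPM per kb, of which Rpl4 lines the exit tunnel for the growing protein chain and the other two sit at its mouth. The library values of Rps3 were 3258 and 3783 CPM per kb in Ell2-KD and 3239 and 3406 in shGFP, above every library value of Rpl4 and Rpl23a. Those of Rpl17 ran from 541 to 4208 CPM per kb and overlapped those of every gene just named, so its place in the order does not hold beyond its spread. Coding length leaves out untranslated bases, which differ between genes. The transcript of Rps3 has 1908 bases, 729 of them coding, and that of Rpl4 has 1538, 1257 of them coding. For Rpl23a these are 560 and 468, and for Rpl17 775 and 552. The mean level was 2494 CPM of library totals for Rps3, 2339 for Rpl4, 823 for Rpl23a and 1051 for Rpl17. Taken over the transcript lengths just given, Rps3 stands lowest of these genes by its mean. The lead of Rps3 thus holds per coding length only.

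At the other end, 7 genes had too few counts to be tested. Rps23, at the decoding centre, had 0 counts in all 4 libraries, which allows up to 0.216 and 0.858 CPM in the Ell2-KD and 0.36 and 0.59 CPM in the shGFP libraries (3 counts of each total, counting error only). Rpl26 had 0 and 1 counts in Ell2-KD and 0 and 0 in shGFP, and Rpl30 had 1 and 0 in Ell2-KD and 0 and 6 in shGFP. Like Rps23, these are standard subunits. The others are paralogs of another member: Rpl3l, known from muscle, had 0 and 0 counts in Ell2-KD and 1 and 0 in shGFP, Rpl10l, known from testis, 3 and 4 in Ell2-KD and 0 and 3 in shGFP, Rpl39l, also known from testis, 0 and 1 in each group, and Rps4y2 1 and 1 in Ell2-KD and 2 and 1 in shGFP. Their parent genes Rpl3, Rpl10, Rpl39 and Rps4x had 86 to 6102 counts in each library.

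Shared sequence bears on every one of these levels. Of the 35-base words in the coding sequences of 85 genes (Rps4y2 had none), a median of 95.4% also occur in the annotated transcripts of other genes, pseudogenes included. For 33 genes every word is shared, among them Rps23, Rpsa and Rpl17. Only 6 genes share fewer than 25%, among them Rps3, Rpl8, Rps19bp1, Rpl39l and Rpl3l. Rps3, the most abundant per coding length, shares 15.5%. How reads with several matches were counted and how long they were is not given in the sources used here, so the counts of genes with shared words are uncertain, and the order of the levels with them. Over the 85 genes, Spearman's correlation of level with shared share was weak at -0.17 (0.04 over 52 large and -0.44 over 33 small subunit genes, all from the same 4 libraries), and no finding is drawn from it.

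**Figure D1:**
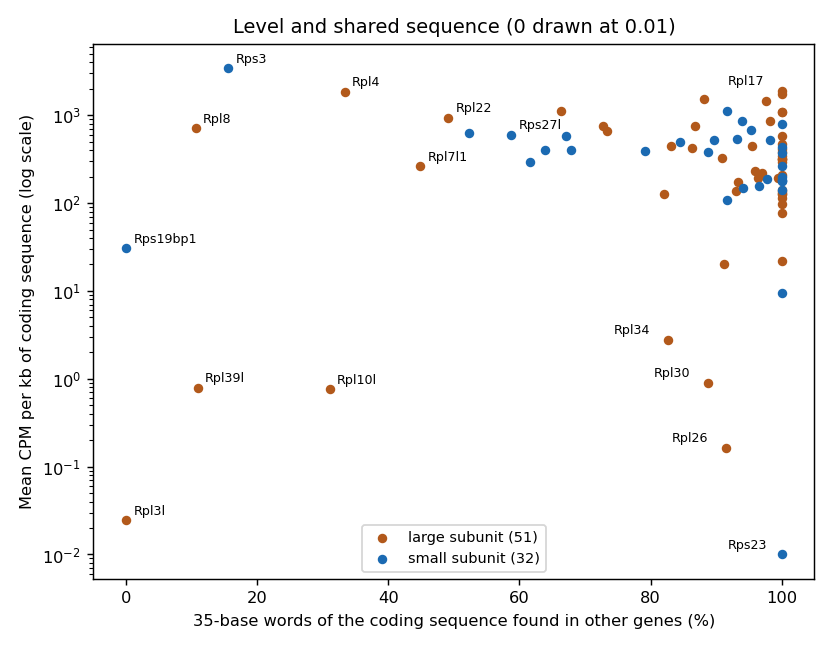
Mean CPM per kb of coding sequence (log axis, mean of 4 libraries) against the percentage of 35-base words of the coding sequence that occur in other genes' transcripts, for large subunit (orange) and small subunit (blue) genes. Rps3 stands at the top left with few shared words, most genes crowd at the right, and Rps23, at 0 counts, is drawn at 0.01.

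Ell2 depletion moved no ribosomal protein gene past the threshold. Of the 79 genes tested, edgeR called 0 (47 of the large subunit, 32 of the small, adjusted p of 0.83 or more), where it called 5 of all 11027 genes tested, or 0.0453%. DESeq2 called 0 as well (background 0.39%). At an unadjusted p under 0.05 each tool had 1 ribosomal protein gene, Rpl29, beside 5.82% and 6.25% of all genes. The median log2 change was -0.05 for the large subunit (21 positive, 26 negative, quartiles -0.28 and 0.15) and -0.05 for the small one (13 positive, 19 negative, quartiles -0.19 and 0.10), against -0.00 for all genes. Without shGFP replicate 2 these medians were 0.30 and 0.39, without shGFP replicate 1 they were -0.23 and -0.23, and without Ell2-KD replicate 1 they were -0.03 and 0.12, so their sign rests on single libraries. Counts were simulated from these libraries for Ell2-KD over shGFP, over 11027 genes. The test recovered 6.25% of the genes altered 2-fold, 57.5% of those altered 4-fold and 78.6% of those altered 8-fold. The altered genes were drawn from all genes, with a spread set by the trend over level and no replicate difference. These shares therefore need not hold for the ribosomal protein genes.

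The absence of a call is not evidence of equal levels, and the 95% intervals say how large a change remains possible. The interval lay within 1 log2 unit on either side of 0 for 45 of the 79 genes, 28 of the large and 17 of the small subunit. The log2 change itself lay within 0.5 of 0 for 43 of 47 large and 28 of 32 small subunit genes, and for 7392 of all 11027. The Ell2-KD and shGFP libraries did not overlap for 12 of the 79, or 15.2%, against 35.8% of all genes tested. By direction, 5 were higher in Ell2-KD (17.4% of all genes) and 7 lower (18.5% of all genes). Rpl5, Rpl22l1, Rps7, Rps24 and Rps27 had both Ell2-KD libraries above both shGFP libraries. Rpl12, Rpl18, Rpl27a, Rpl29, Rpl36a, Rps21 and Rps19bp1 had both below.

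**Figure D2:**
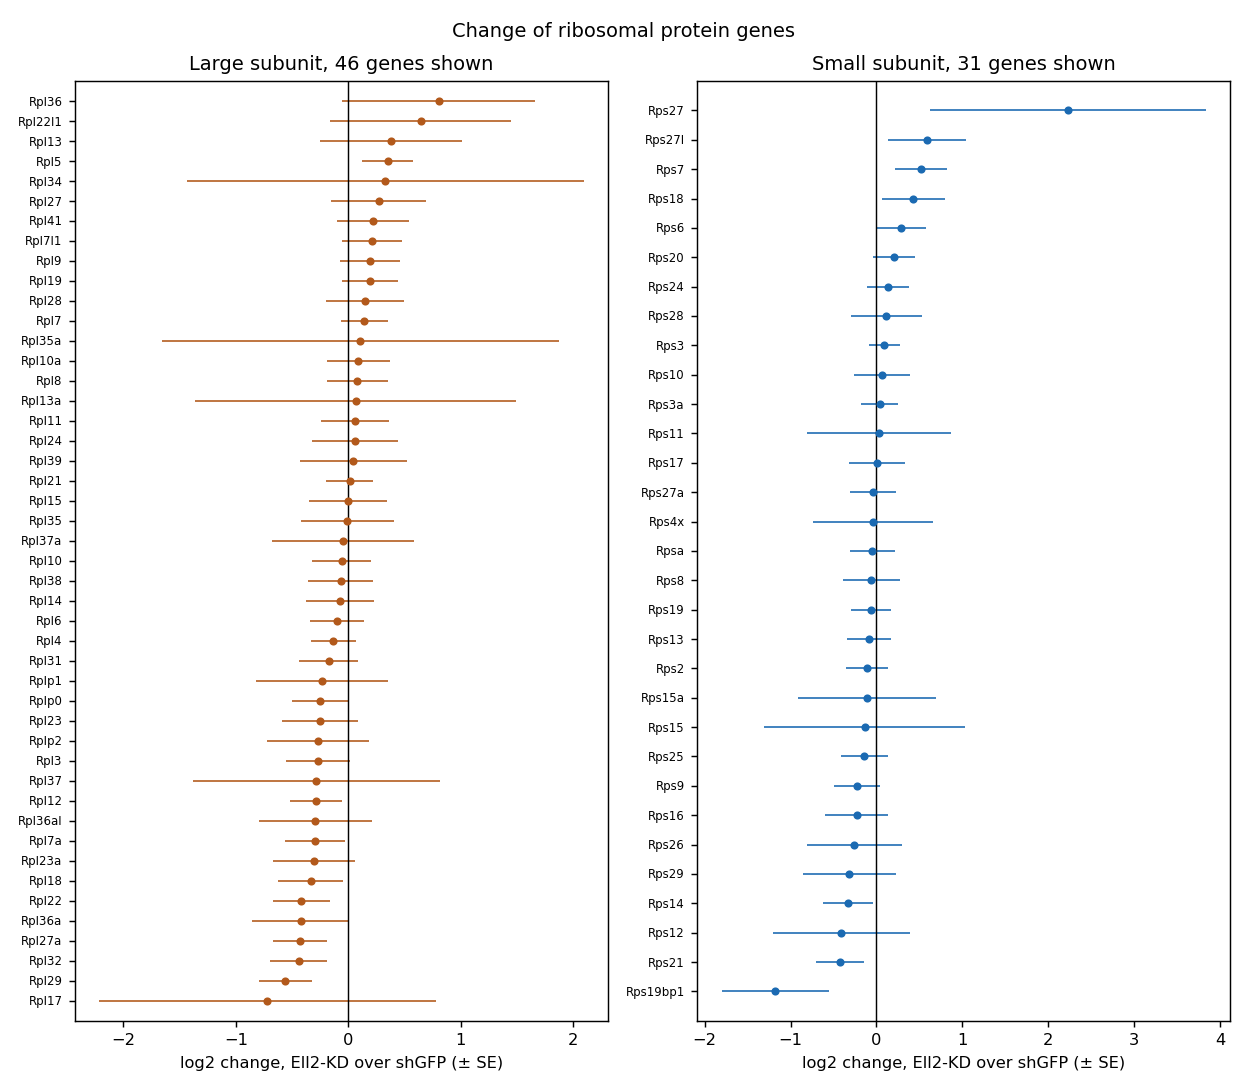
The log2 change, Ell2-KD over shGFP, of tested ribosomal protein genes (edgeR, bars ± SE, 2 libraries a group), large subunit on the left and small on the right, sorted by value. Most points lie within 0.5 of 0, and the widest bars belong to Rpl17, Rpl13a, Rpl35a and Rpl34 of the large and Rps27 and Rps15 of the small subunit.

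In the acidic stalk of the large subunit, Rplp1 had 182 and 300 CPM in Ell2-KD and 145 and 422 CPM in shGFP, and Rplp2, its partner in the stalk dimers, 32.1 and 48.6 CPM in Ell2-KD and 28.6 and 68.7 CPM in shGFP. As with Rplp0, the shGFP libraries enclosed the Ell2-KD ones. The log2 changes were -0.25 ± 0.25 for Rplp0, -0.24 ± 0.59 for Rplp1 and -0.27 ± 0.46 for Rplp2 (SE, edgeR adjusted p of 0.975 to 0.999).

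Rpl5 and Rpl11 carry the 5S ribosomal RNA into the large subunit and, outside it, bind Mdm2. Rpl5 had 353 and 275 CPM in Ell2-KD, against 253 and 240 CPM in shGFP. Both Ell2-KD values lay above both shGFP values, and the gene had a change of 0.35 ± 0.23 on the log2 scale (SE; adjusted p = 0.916, edgeR). Rpl11 had 87.0 and 65.3 CPM in Ell2-KD and 68.7 and 77.6 CPM in shGFP, the Ell2-KD libraries being highest and lowest, and its log2 change was 0.06 ± 0.30.

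Around the exit tunnel, Rpl4 had 2022 and 2456 CPM in Ell2-KD and 2106 and 2813 CPM in shGFP. Its log2 change was -0.14 ± 0.20 (SE), with a 95% interval of -0.58 to 0.31. Rpl23a, where the signal recognition particle docks, had 596 and 887 CPM in Ell2-KD and 588 and 1241 CPM in shGFP, a log2 change of -0.30 ± 0.36. For both genes the groups overlapped and shGFP replicate 2 was the highest library. Rpl17 had 426 and 1179 CPM in Ell2-KD, against 296 and 2346 CPM in shGFP. The shGFP libraries enclosed the Ell2-KD ones, and the log2 change of -0.72 ± 1.49 had an interval of -6.61 to 5.17. Leaving out 1 library turned Rpl17 round: its log2 change was -1.54 without shGFP replicate 1 (edgeR adjusted p = 0.006) and 1.43 without shGFP replicate 2 (adjusted p = 0.038). Rpl17 was the only ribosomal protein gene called in any leave-one-out fit.

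Among the genes with the largest negative changes, Rpl29 had 353 and 317 CPM in Ell2-KD and 399 and 589 CPM in shGFP, both Ell2-KD values below both shGFP values. The log2 change was -0.56 ± 0.24 (SE, edgeR adjusted p = 0.83), and it ran from -0.80 to -0.26 when each library was left out in turn. Rpl32 had 425 and 336 CPM in Ell2-KD and 403 and 629 CPM in shGFP, overlapping, with a log2 change of -0.44 ± 0.25. Rpl27a, whose pyrimidine run, 20 bases in full and cut off at the end of the window shown, is the longest of those printed, had 193 and 161 CPM in Ell2-KD and 264 and 213 CPM in shGFP. Its groups were apart and lower in Ell2-KD, with a log2 change of -0.43 ± 0.24 (edgeR adjusted p = 0.896).

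The largest positive changes at a mean of at least 5 CPM included genes of low counts. Rpl36 had 11.7 and 5.56 CPM in Ell2-KD and 3.70 and 6.35 CPM in shGFP, a log2 change of 0.80 ± 0.86 (SE). Rpl22l1 had 6.67 and 11.4 CPM in Ell2-KD and 5.72 and 5.75 CPM in shGFP, 0.64 ± 0.80. Only for Rpl22l1 of these was every Ell2-KD value above every shGFP value. Rpl13 had 141 and 315 CPM in Ell2-KD and 97.4 and 253 CPM in shGFP, 0.38 ± 0.63, with more difference between replicates than between groups. Rpl13a, known in human cells as part of a complex that silences inflammatory messenger RNAs, had 311 and 1511 CPM in Ell2-KD and 320 and 1421 CPM in shGFP, so replicate 2 stood over 4-fold above replicate 1 in each group (log2 change between groups 0.07 ± 1.43).

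Several large subunit proteins come as a pair of related genes. Rpl22 had 326 and 291 CPM in Ell2-KD and 504 and 320 CPM in shGFP, at -0.42 ± 0.25 on the log2 scale (SE; adjusted p = 0.906, edgeR), where its paralog Rpl22l1, which can take its place in the ribosome, had the positive value above. The Rpl22 value was -0.042 without shGFP replicate 1 and -0.71 without shGFP replicate 2. Neither gene passed the test, and the difference between them was not tested. The log2 change was 0.14 ± 0.21 for Rpl7 and 0.21 ± 0.27 for Rpl7l1, and -0.42 ± 0.43 for Rpl36a and -0.29 ± 0.50 for Rpl36al. Rpl3 stood at -0.27 ± 0.28, Rpl10, which completes the large subunit late in its assembly, at -0.06 ± 0.26, and Rpl39 at 0.05 ± 0.48, with the paralogs Rpl3l, Rpl10l and Rpl39l too scarce to test. The coding words of Rpl36a and Rpl36al are all shared with other genes, so the counts of both are uncertain. Whether the pair shares words with each other was not tested.

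In the small subunit, the change of Rps3 had the smallest error of the 79 genes. Rps3 had 2344 and 2823 CPM in Ell2-KD and 2343 and 2507 CPM in shGFP, a log2 change of 0.09 ± 0.18 (SE, 95% interval -0.30 to 0.48). The groups overlapped, and few of its words are shared with other genes. Rps3a had 597 and 774 CPM in Ell2-KD and 621 and 715 CPM in shGFP, 0.04 ± 0.21. Rpsa, given above, had a log2 change of -0.05 ± 0.26. Rps4x had 378 and 686 CPM in Ell2-KD and 274 and 821 CPM in shGFP, -0.04 ± 0.70, the shGFP libraries enclosing the Ell2-KD ones.

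Among small subunit genes with a mean of at least 5 CPM, the largest positive changes were those of Rps27l, Rps7 and Rps18. Rps27l, a p53-induced relative of Rps27 in human cells, had 110 and 258 CPM in Ell2-KD and 85.7 and 159 CPM in shGFP, overlapping, at 0.59 ± 0.45 on the log2 scale (SE; adjusted p = 0.953, edgeR). Rps7, which also binds Mdm2, had 122 and 139 CPM in Ell2-KD and 70.4 and 112 CPM in shGFP. Its groups were apart and higher in Ell2-KD, at 0.52 ± 0.30 (adjusted p = 0.906), with 0.23 without shGFP replicate 1 and 0.89 without shGFP replicate 2. Rps18 had 47.8 and 66.2 CPM in Ell2-KD and 34.7 and 49.8 CPM in shGFP, 0.43 ± 0.36. Rps27 itself had 29 and 20 counts in Ell2-KD and 1 and 8 in shGFP, and the fitted log2 change of 2.23 ± 1.61 (interval -1.31 to 5.77) rests on these few counts.

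On the negative side, Rps19bp1 had 10.9 and 4.98 CPM in Ell2-KD and 16.0 and 20.6 CPM in shGFP, both Ell2-KD values below both shGFP values. Its log2 change of -1.18 ± 0.63 (SE, edgeR adjusted p = 0.871) was the most negative of the 79, in a gene that shares no word with others and is no subunit. It was -1.87 without Ell2-KD replicate 1 and -0.74 without Ell2-KD replicate 2. Rps21 had 93.6 and 78.2 CPM in Ell2-KD and 114 and 116 CPM in shGFP, apart, with a log2 change of -0.42 ± 0.28. Rps12, a sensor in cell competition in Drosophila, had 93.1 and 209 CPM in Ell2-KD and 92.9 and 308 CPM in shGFP, overlapping, at -0.41 ± 0.80.

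Genes whose loss of 1 copy has been linked to Diamond-Blackfan anaemia in humans, a failure of red cell formation, numbered 17 in the list used, of which 16 were tested and Rpl26 was not. Their log2 changes were positive for 10 and negative for 6, with a median of 0.06. Of them edgeR called 0, where it called 0.0453% of all genes tested, so the 0 says little about a list this short. Rps19, the best known of them, had 208 and 210 CPM in Ell2-KD and 195 and 243 CPM in shGFP, the shGFP libraries lowest and highest.

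Over the 79 genes the median absolute difference between replicates was 0.37 log2 units in Ell2-KD and 0.67 in shGFP. The median absolute log2 change between groups was 0.20. Over all genes tested these medians were 0.50, 0.40 and 0.33. A replicate difference sets 1 library against 1, while the group change draws on 2 libraries a group. Replicate differences are thus larger by construction, and no finding is drawn from their size beside the group change. In shGFP, replicate 2 lay above replicate 1 by a median of 0.58 log2 units in both the large and the small subunit, and in Ell2-KD by 0.08 in the large and 0.27 in the small subunit, where over all genes tested the medians were -0.01 and -0.01. Replicate 2 was the higher in both groups for 47 of the 79 genes, or 59.5% (24 of the large and 23 of the small subunit), against 29.3% of all genes. It was higher by over 1 log2 unit in both for 10 of 79, or 12.7%, against 5.01% of all genes. Of the 4 libraries, shGFP replicate 2 was the highest for 42 of the 79 and shGFP replicate 1 the lowest for 46. The labels name no batch that the replicate numbers could stand for.

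**Figure D3:**
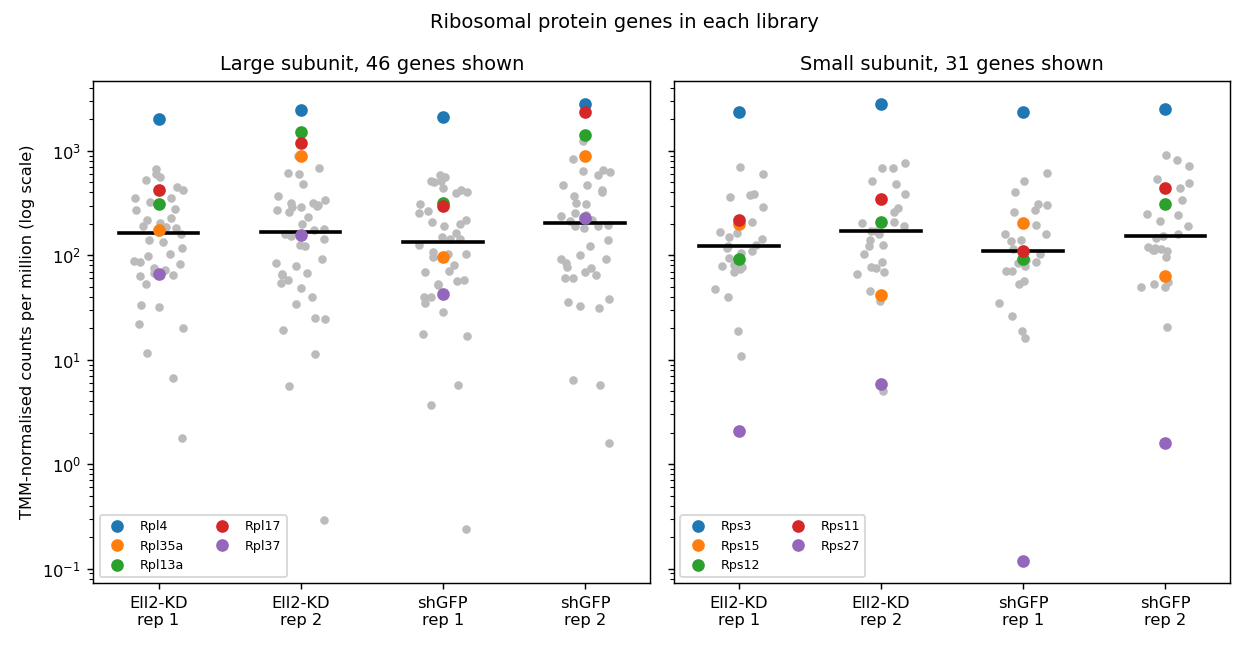
TMM-normalised CPM (log axis) of tested large subunit (left) and small subunit (right) genes in the 2 Ell2-KD and the 2 shGFP libraries; grey points are genes, black bars their medians, and coloured points the genes in the legend. Rpl35a, Rpl13a and Rpl17 stand higher in replicate 2 of both groups, and Rps15 lower.

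The genes in this paragraph were picked for their replicate differences after their values were seen, so the values are a description. Rpl35a, which is needed to mature large subunit RNA, had 176 and 889 CPM in Ell2-KD replicates 1 and 2, and 96.8 and 892 CPM in shGFP replicates 1 and 2. Its mean replicate difference of 2.77 log2 units was the largest of the 79, and the groups nearly coincided in replicate 2. Rpl17 and Rpl13a followed at 2.23 and 2.21, and Rpl37 at 1.81. In the other direction, Rps15, a head protein with a tail that reaches the decoding site, had 200 and 41.6 CPM in Ell2-KD replicates 1 and 2, and 203 and 63.9 CPM in shGFP. Replicate 1 was the higher in both groups, by a mean of 1.96 log2 units. Over the 79 genes the replicate differences of the 2 groups had a Pearson correlation of 0.73, and over all 11027 genes one of 0.31, as descriptions of points that all come from the same 4 libraries and share their scaling.

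**Figure D4:**
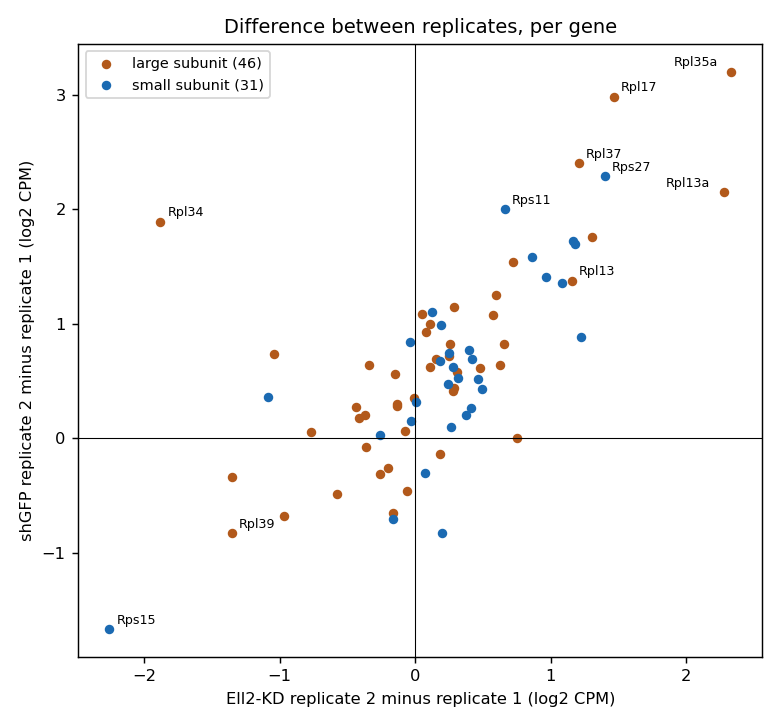
Replicate 2 minus replicate 1 in log2 CPM, in Ell2-KD (horizontal) and in shGFP (vertical), for large subunit (orange) and small subunit (blue) genes. Most points lie above 0 in shGFP, and Rpl35a, Rpl17 and Rpl13a at the top right lie opposite Rps15 at the bottom left.

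Within replicate number 1 the median Ell2-KD minus shGFP difference was 0.21 log2 units for the large and 0.08 for the small subunit, and within number 2 it was -0.20 and -0.21. The sign of the group difference thus changed with the replicate number. Large subunit genes took 1.13% and 1.45% of the counts in Ell2-KD replicates 1 and 2, and 1.07% and 1.80% in shGFP replicates 1 and 2. Small subunit genes took 0.949% and 1.05% in Ell2-KD and 0.892% and 1.15% in shGFP. In both subunits the share was higher in Ell2-KD in number 1 and lower in number 2. Large subunit counts were 1.19 and 1.37 times small subunit counts in Ell2-KD and 1.20 and 1.56 times in shGFP.

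**Figure D5:**
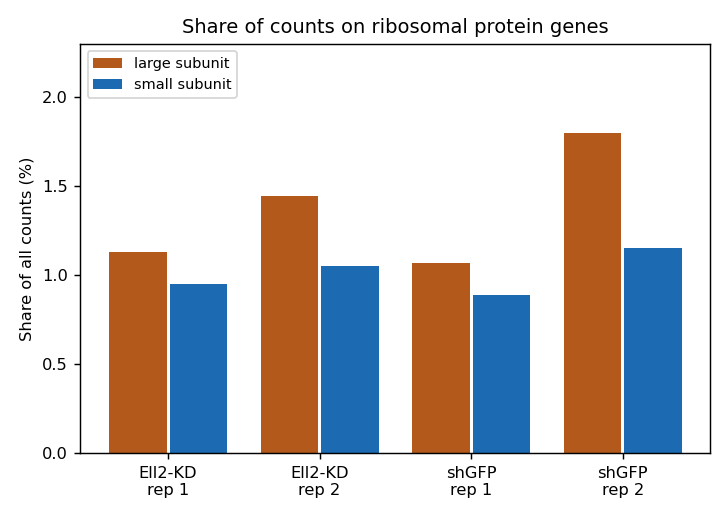
Share of all counts in each library, in percent, taken by large subunit (orange) and small subunit (blue) ribosomal protein genes, Ell2-KD libraries on the left. The shares are 1.07% to 1.80% for the large and 0.892% to 1.15% for the small subunit, highest in shGFP replicate 2.

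SnoRNAs are annotated inside 30 of the 86 genes, 58 snoRNAs in all, of which 30 have an entry of their own in the tables. Their summed level was 985 and 9520.2 CPM in Ell2-KD replicates 1 and 2, and 1211 and 10847 CPM in shGFP replicates 1 and 2. Of the 30, 27 were higher in replicate 2 in both groups, against 29.3% of all genes tested. The sums lean on single snoRNAs: Snord15b alone had 4826 CPM in Ell2-KD and 5342 CPM in shGFP replicate 2. By contrast, Snord34 had 72.6 and 78.4 CPM in Ell2-KD and 105 and 126 CPM in shGFP. By sum, replicate 2 was thus far richer in these small RNAs than replicate 1 in Ell2-KD and in shGFP alike. The host genes themselves had a median replicate difference of 0.31 log2 units in Ell2-KD and 0.61 in shGFP, and the genes with no snoRNA inside 0.11 in Ell2-KD and 0.57 in shGFP. This split was made after values were seen, and the part of the snoRNAs in the hosts' counts was not tested. Of the genes picked above for their replicate differences, Rpl35a and Rps15 have no annotated snoRNA inside, and Rpl17 has 3, Rpl13a 4 and Rpl37 1.

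Among ribosomal proteins that the symbol rule does not take, Fau, which makes Rps30 fused to a ubiquitin-like protein, had 87.5 and 86.9 CPM in Ell2-KD and 89.6 and 126 CPM in shGFP, apart and lower in Ell2-KD, with a log2 change of -0.31 ± 0.29 (SE). Gnb2l1, the signalling scaffold Rack1 on the small subunit, had 3616 and 3599 CPM in Ell2-KD and 2933 and 3438 CPM in shGFP, apart and higher in Ell2-KD, at 0.18 ± 0.17. Neither passed the edgeR test (adjusted p of 0.968 to 0.970).

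Other genes of the translation machinery were described by the same fit. Of each list edgeR called 0, where it called 0.0453% of all genes tested. Translation factors whose messenger RNAs are known to begin with a pyrimidine tract, with Npm1, numbered 23. Of their log2 changes 20 were positive and 3 negative, with a median of 0.14, where 5502 of all 11027 genes tested were positive. The groups were apart for 21.7% of the list, against 35.8% of all genes tested. How the signs of these genes as a list move with a library left out was not tested. Npm1, a nucleolar chaperone of ribosome assembly, had the smallest p among them, with 415 and 427 CPM in Ell2-KD and 253 and 315 CPM in shGFP and a log2 change of 0.57 ± 0.22 (SE, adjusted p = 0.794). On the negative side, Eif2s3x, a subunit of the factor that brings the initiator tRNA, stood at -0.29 ± 0.31. Of 91 ribosome assembly genes, 57 were positive and 34 negative, median 0.09. Polr1e, a subunit of RNA polymerase I, which makes ribosomal RNA, had 96.0 and 84.6 CPM in Ell2-KD and 45.9 and 57.3 CPM in shGFP (0.81 ± 0.30, adjusted p = 0.782), and Utp3, of the small subunit precursor, stood at -0.44 ± 0.29.

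Of 18 genes of translation signalling, 11 were positive and 7 negative, with a median of 0.05. Larp4, which binds poly(A) tails and translating messenger RNA, had 160 and 180.0 CPM in Ell2-KD and 85.3 and 117 CPM in shGFP (log2 change 0.75 ± 0.27 SE, edgeR adjusted p = 0.754). Eif4ebp1, the mTORC1 target that holds back cap-dependent translation, had 21.1 and 15.8 CPM in Ell2-KD and 40.8 and 26.4 CPM in shGFP (-0.86 ± 0.46, adjusted p = 0.871). The groups were apart for both, as for 38.9% of the list and 35.8% of all genes tested. Both were named for the smallest p in their direction, which favours groups that are apart. Mitochondrial ribosomal proteins numbered 76, with 35 positive and 41 negative and a median of -0.03. Among them Mrps6 stood at 1.15 ± 0.45 (adjusted p = 0.794) and Mrpl24 at -1.16 ± 0.34 (adjusted p = 0.587), where Mrpl24 had 28.8 and 38.1 CPM in Ell2-KD and 76.4 and 72.2 CPM in shGFP.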

How the data were processed

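Total RNA of 4 MPC11 cultures, 2 Ell2-KD and 2 shGFP, went through SOLiD sequencing, per the labels' protocols. For each library there is a deposited table of gene counts, read as raw counts because the values are whole numbers with differing totals. The submitters' processing notes name the build mm9 with HTSeq 0.5.3, SAMtools 0.1.11 and DESeq 1.4.1. No aligner, annotation, strand setting or read length is stated there, so antisense or overlapping genes could not be told apart.

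The test was that of edgeR 4.0.16 (R 4.3.3) on all 4 libraries: filterByExpr (minimum count 10, total 15; 11027 genes kept, 79 of the 86 members), TMM scaling, a robust quasi-likelihood fit with group as the only term, and Benjamini-Hochberg adjustment over all genes, with a threshold of 0.05. The SE is the log2 change over the square root of F. The spread was wide (common biological coefficient of variation 0.431), and the shallow Ell2-KD library limits scarce genes. The test was tried on simulated counts, 5 draws, where 24 of 52067 unchanged genes were called. DESeq2 1.42.0, other scalings and filters, a replicate block and leaving out each library were alternatives. CPM is TMM-normalised, except in sums over lists and snoRNAs, shares and levels per coding length, which use library totals. Replicate differences are of log2 CPM with a prior count of 2.

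RefSeq names and windows (GRCm38.p6; 84 members matched by symbol, 2 by an older symbol) and GENCODE M21 coding sequences (85 members) are of another build than the counts and gave no gene coordinates. Members and lists were chosen with earlier results of these data known. Named were Ell2, the stalk genes and Rpsa, the 5 most abundant members of each subunit, up to 3 in each direction with the largest change at a mean of 5 CPM or more, paralog pairs, and per list the smallest p in each direction. Some genes that this rule takes are not reported here. Others named were chosen after their values were seen. Plasma cell, T and NK cell, myeloid, erythroid, stromal and epithelial marker lists were summed as a check.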

Additional observations from a re-analysis of the deposited data

How the results depend on the processing

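Over the alternative fits, the count of called small subunit genes was 0 throughout, and that of the large subunit 0 to 1 when a library was left out, the 1 being Rpl17 in opposite directions. Genes called over the whole table numbered 43 by DESeq2, 2 with library totals only, 22 with no filter and 14 to 142 with a library left out, against 5. With the replicate number as a block, 28 genes and 0 ribosomal protein genes were called. Only 2 pairs share a number, and no label makes the number a batch, so the samples were not treated as paired. The median log2 change moved with the library left out, from -0.23 to 0.30 for the large and from -0.23 to 0.39 for the small subunit.

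Of the named genes' values, 468 kept their sign and call over all settings, 34 changed sign, and 1 kept its sign and became a call. The last was Rpl17 without shGFP replicate 1, and of those that changed sign Rpl17 without shGFP replicate 2 was a call too. Apart from leaving out a library, Rpsa was 0.022 with no filter and 0.015 with the block, Rps4x 0.10 and Rpl39 -0.046 with the block, and Rpl10 0.0049 with no filter. Leaving out a library in turn gave the following log2 ranges for genes that changed sign: Rplp0 -0.56 to 0.15, Rplp1 -0.80 to 0.73, Rplp2 -0.76 to 0.49, Rpsa -0.40 to 0.43, Rpl4 -0.32 to 0.085, Rpl17 -1.62 to 1.43, Rpl13a -1.47 to 1.50, Rpl23a -0.73 to 0.33, Rpl13 -0.30 to 1.22, Rpl3 -0.62 to 0.20, Rpl7l1 -0.044 to 0.52, Rpl10 -0.38 to 0.22, Rpl36al -0.75 to 0.39 and Rpl39 -0.81 to 0.56. In the small subunit they were Rps3 -0.041 to 0.22, Rps3a -0.15 to 0.21, Rps4x -0.62 to 0.95, Rps27l -0.14 to 1.09 and Rps12 -1.09 to 0.69, and outside the group Eif2s3x -0.67 to 0.015. Named members that kept their sign but moved by over 1.5 times were Rpl7 (0.012 to 0.30), Rpl22 (-0.71 to -0.042), Rpl22l1 (0.22 to 0.99), Rpl29 (-0.80 to -0.26), Rpl32 (-0.71 to -0.086), Rpl36 (0.16 to 1.24), Rpl36a (-0.87 to -0.090), Rps7 (0.23 to 0.89), Rps18 (0.19 to 0.71), Rps19bp1 (-1.87 to -0.74) and Rps27 (1.30 to 4.86). The ranges above are only for genes taken by the naming rule, and other members discussed moved as well. Rpl5 (0.16 to 0.53) and Rpl27a (-0.58 to -0.25) kept their sign. Rpl11 (-0.16 to 0.26), Rpl35a (-1.48 to 2.45), Rps15 (-1.69 to 0.94) and Rps19 (-0.21 to 0.10) were among those that did not. The cause was not tested. A fit that left 1 library in a group assumed that it varies like the other group. Rps23, Rpl26, Rpl30, Rpl34 and Rps27 had 29 counts or fewer in every library, which limits the precision of their values.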
